A study of Mus musculus with 22 samples.

Results

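The results below concern 8 genes of inhibitory transmission by GABA and glycine in mouse spinal cord: Gad1, Gad2, Slc32a1, Slc6a5, Glra1, Glra3, Glrb and Gphn. They were picked by symbol for their role at the inhibitory synapse, out of 21995 genes in the table, and all 8 were measured well enough to be tested in each comparison. RNA of the whole cord, pushed out of the spine with cold PBS, was sequenced in 22 libraries. In the aging experiment, 8 young (3–4 months) and 8 old (18–24 months) male C57BL/6 wild type mice were compared, with libraries made with the Roche KAPA HyperPrep kit. In the ALS experiment, 3 symptomatic mice that carry the SOD1-G93A transgene and 3 wild type controls (5–6 months, 2 females and 1 male in each group, Illumina TruSeq kit) were compared. SOD1-G93A mice express a mutant human SOD1 gene in many cell types and lose motor neurons, and they model the inherited form of ALS caused by that gene. All mice were on the C57BL/6 strain. The kit, sex and age differ with the experiment, so that differences between the experiments in the level of a gene cannot be told apart from these.

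In the spinal cord, fast inhibition uses both GABA and glycine, and many inhibitory interneurons release them together onto motor neurons and other interneurons. GABA is made from glutamate by glutamate decarboxylases, glycine is taken up by a transporter in the nerve terminal, and a single vesicular transporter loads both into synaptic vesicles. On the receiving cell they open chloride channels that are held under the terminal by a scaffold protein, and loss of glycine receptor or transporter function causes startle disease.

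Total counts per library were 5078092–9358055 in young, 5664869–9145600 in old, 10693060–13219797 in control and 9675610–11872431 in SOD1-G93A mice. On the scale of CPM, counts relative to library size, 3 counts came to between 0.227 and 0.591 in these libraries, far under the level of each of the 8 genes. All 9 Hox genes that mark spinal position were tested and 1 of 8 genes of forebrain and cerebellum was, with Gabra6 at 0 counts in each library. The sum of 8 genes of sensory ganglion and peripheral nerve stood out in SOD1-G93A 1 (123 CPM, against 16.2–31.7 CPM in the other ALS libraries) and old 5 (78.5 CPM), and its part in the results was not tested.

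Positions are on GRCm38, from the first to the last annotated base of each gene. Gad1 (ENSMUSG00000070880) lies on the plus strand at chr2:70553072-70602014, Gad2 (ENSMUSG00000026787) on plus at chr2:22622205-22693874 and Slc32a1 (ENSMUSG00000037771) on plus at chr2:158610767-158615748. Slc6a5 (ENSMUSG00000039728) lies on plus at chr7:49910146-49963856 and Glra1 (ENSMUSG00000000263) on minus at chr11:55514238-55608198. Glra3 (ENSMUSG00000038257) is on plus at chr8:55940460-56130070, Glrb (ENSMUSG00000028020) on minus at chr3:80843599-80913660 and Gphn (ENSMUSG00000047454) on plus at chr12:78226379-78684772. Gad1, Slc32a1 and Glra1 each overlap an antisense gene (Gad1os, Gm14205 and Gm12236), and the use of strand in counting is not given in the sources used here, so that reads of each pair may be mixed.

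Sequence just before the transcription start is shown for 3 members that differ in their response below and whose window of 200 bases holds no exon of a coding gene. They come from RefSeq on GRCm38.p6, read 5′ to 3′ on the strand of the gene and ending at the base before the start. Windows for 7 of the 8 genes matched, and Glra1 had no entry. Capitals mark a CCAAT box or GC box (GGGCGG) on either strand.
Slc32a1, plus strand of chr2:158610558-158610757: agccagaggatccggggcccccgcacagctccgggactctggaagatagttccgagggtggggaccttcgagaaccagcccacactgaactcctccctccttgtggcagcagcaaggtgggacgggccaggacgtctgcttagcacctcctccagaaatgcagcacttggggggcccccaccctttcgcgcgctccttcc
Glrb, minus strand of chr3:80913661-80913860: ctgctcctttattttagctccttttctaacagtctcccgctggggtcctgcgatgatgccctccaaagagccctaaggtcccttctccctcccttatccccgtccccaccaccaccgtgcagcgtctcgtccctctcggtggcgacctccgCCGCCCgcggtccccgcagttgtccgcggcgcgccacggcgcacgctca
Glra3, plus strand of chr8:55940218-55940417: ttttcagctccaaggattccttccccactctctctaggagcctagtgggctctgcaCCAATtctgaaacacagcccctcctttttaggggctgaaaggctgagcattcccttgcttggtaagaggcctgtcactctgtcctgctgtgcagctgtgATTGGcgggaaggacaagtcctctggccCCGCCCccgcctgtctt

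The 3 windows differed in base content and in these letters. Slc32a1 and Glrb had 65% and 65.5% GC, and Glra3 had 56.5%, against a median of 53% over 32851 promoter windows. Counting back from the base before the start as -1, Glrb held a GC box that begins at -49. Glra3 held CCAAT boxes that begin at -144 and -45 and a GC box at -17, and Slc32a1 held none of the motifs searched. A GC box is in 31% and a CCAAT box in 29.3% of all windows, so that a match is common. The others searched, on both strands, were TATAAA (9.96% of windows), CACCTG, the E-box bound by PTF1A (13.9%), the cAMP response element TGACGTCA (1.47%) and its core TGACG within it (15.7%), the left and right arms of the REST site (0.237% and 0.0852%) and the NRF1 site (0.728%).

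Per transcript length, the 8 genes spanned a wide range of levels in the young cord. Glrb, the beta subunit that anchors glycine receptors, was the highest at 134 ± 6.05 FPKM (SD, n = 8). It was followed by the glycine transporter gene Slc6a5 at 68.9 ± 3.98 FPKM, Slc32a1 at 62.9 ± 3.72 FPKM, Glra1 at 59.6 ± 7.63 FPKM and Gad1 at 57.1 ± 6.85 FPKM. Neighbours among these 4 overlapped within their SDs, so that their order does not go beyond the spread between mice. Gphn stood at 23.8 ± 3.3 FPKM, Gad2 at 16.6 ± 1.7 FPKM and Glra3 at 3.13 ± 0.531 FPKM. In the controls of the ALS experiment the order was similar but for Glra1, which at 20.5 ± 8.15 FPKM (SD, n = 3) was close to Gad2 at 19.7 ± 1.28 FPKM. Glrb was again the highest there at 130 ± 5.69 FPKM and Glra3 the lowest at 4.48 ± 0.497 FPKM.

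The first question was what normal aging does to these genes. In old cords 4 of the 8 fell (Gad1, Gad2, Slc6a5 and Gphn) and 0 rose, or 2 fell when scaled by pan-neuronal genes, by edgeR at an adjusted p under 0.05, where 12.9% of all 13647 genes tested fell and 26.4% changed either way. The changes were small: no member passed a log2 change of -1, as 0.044% of all genes did. All 8 values were negative, as were 50.6% of all genes, and their median was a log2 change of -0.20 beside -0.0027 over all genes. A whole cord holds many cell types, and fewer cells of a type cannot be told apart from less RNA per cell.

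Gad1 and Gad2, the decarboxylases that make GABA, were both lower in old mice. Gad2 ranged over 86.1–114 CPM in the young group (median 101), against 63.3–106 CPM in the old (median 76.6). In 6 of 8 old mice it was below the lowest young mouse. Gad2 fell by 20.9%, a log2 change of -0.34 (SE 0.08, edgeR adjusted p = 0.00344), and kept its call whichever mouse was left out. Gad1 ranged over 154–191 CPM in the young group (median 168), against 83.3–164 CPM in the old (median 147). In 7 of 8 old mice it was below the lowest young mouse by CPM, although the groups overlapped. By FPKM the overlap was wider, at 49.4–68.1 in young and 33.9–72.1 in old mice. Gad1 fell by 16.6%, a log2 change of -0.26 (SE 0.09, edgeR adjusted p = 0.0316). The Gad1 call was lost without young 2, young 3 or young 4, with edgeR adjusted p values of 0.0538, 0.0519 and 0.0618.

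The 2 transporters did not give the same picture. Slc6a5, which carries glycine into the terminals of glycinergic neurons, ranged over 468–551 CPM in the young group (median 521), against 402–519 CPM in the old (median 455). It fell by 10.3%, a log2 change of -0.16 (SE 0.05, edgeR adjusted p = 0.0363), with 5 of 8 old mice below the lowest young mouse. That call held in 6 of the 16 fits that each left out 1 mouse, and the adjusted p reached 0.078 without old 3. It was lost without any 1 of old 1, 2, 3, 4 or 7 and young 1, 2, 4, 6 or 8. Slc32a1, which loads both GABA and glycine into vesicles, ranged over 172–194 CPM in the young group (median 188), against 168–200 CPM in the old (median 174). Its ranges overlapped almost entirely, with a log2 change of -0.05 (SE 0.04, edgeR adjusted p = 0.398).

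None of the 3 glycine receptor genes passed the test in aging. Glra1, the adult ligand-binding alpha subunit, ranged over 120–181 CPM in the young group (median 151), against 116–165 CPM in the old (median 124), a log2 change of -0.17 (SE 0.08, edgeR adjusted p = 0.109). Glrb lay between 314 and 362 CPM (median 343) and between 262 and 357 CPM (median 315), a log2 change of -0.14 (SE 0.06, edgeR adjusted p = 0.0952). In 4 of 8 old mice Glrb was below the lowest young mouse, and in 1 of 8 Glra1 was. Glra3, a less abundant alpha subunit known from superficial dorsal horn, ranged over 15.8–25.1 CPM in the young group (median 22.9), against 14.2–26.5 CPM in the old (median 17.9), a log2 change of -0.24 (SE 0.13, edgeR adjusted p = 0.177). All 3 of these genes passed when old 6 was left out, with edgeR adjusted p values of 0.0141 for Glra1, 0.0268 for Glra3 and 0.0245 for Glrb. Glra1 also passed without young 7 (edgeR adjusted p = 0.0453) and Glrb without old 8 (edgeR adjusted p = 0.0486).

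Gphn, which codes for gephyrin, the scaffold under glycine and many GABA receptors, had the clearest change with age. It ranged over 65.9–74.7 CPM in the young group (median 69.2), against 51.2–63.3 CPM in the old (median 56.4). By CPM, all 8 old mice were below all 8 young mice. Gphn was the only member whose groups did not overlap on that scale, as in 1.66% of all genes that were lower without overlap. By FPKM its groups overlapped, at 19.1–27.8 in young and 18.6–21.8 in old mice. Gphn fell by 18.3%, a log2 change of -0.29 (SE 0.05, edgeR adjusted p = 0.000106). Without any 1 mouse the log2 change stayed between -0.31 and -0.27, and the adjusted p at most 0.000388.

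**Figure D1:**
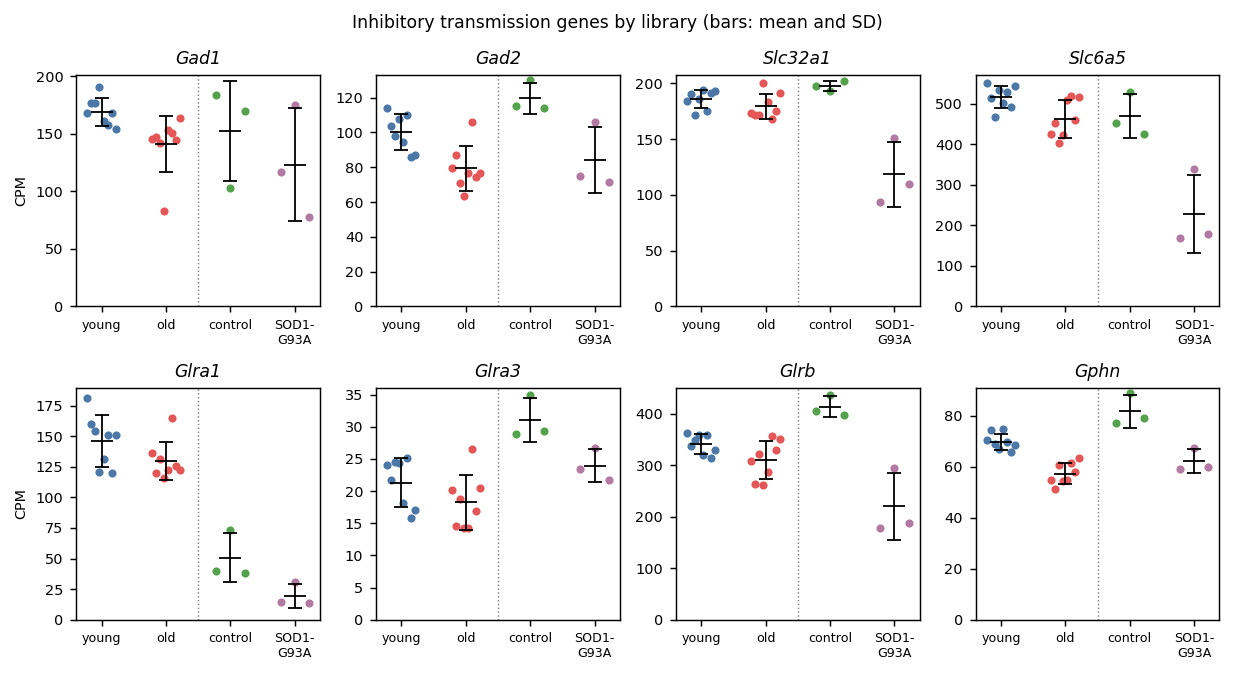
CPM (y axis, from 0) of the 8 genes in each library, by group, with 1 point per library and bars for the mean and SD (8 young, 8 old, 3 control and 3 SOD1-G93A). For Gphn the old points (51.2–63.3 CPM) lie below the young ones (65.9–74.7 CPM), and in SOD1-G93A mice 7 of 8 genes lie below all controls, with Gad1 the exception.

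The next question was how these genes stand in symptomatic SOD1-G93A mice. In these cords 7 of the 8 genes fell and 0 rose, or 1 fell when scaled by pan-neuronal genes, where 15.5% of all 14386 genes tested fell and 33.9% changed either way, and Gad1 did not pass. By CPM the same 7 were below the lowest control in each SOD1-G93A mouse, as were 24.7% of all genes. By FPKM the Gphn groups overlapped, at 25.8–29.8 in controls and 19.5–26.1 in SOD1-G93A mice. Slc6a5 and Glra1 fell by more than 1 on the log2 scale, as did 1.2% of all genes. All 8 values were negative, as were 49.7% of all genes, and their median was a log2 change of -0.63 beside 0.0031 over all genes.

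Glra1, Slc6a5 and Glrb, all of the glycine side, had the most negative values of the 8. Glra3, also a glycine receptor subunit, had a smaller change of -0.38, beside -0.51 for Gad2. Glra1 was 40.1, 73.6 and 38.2 CPM in controls and 14.1, 31.1 and 13.3 CPM in SOD1-G93A mice. Its groups did not overlap, and it fell by 61.8%, a log2 change of -1.39 (SE 0.36, edgeR adjusted p = 0.0171). Control 2 was well above the other controls for Glra1. Slc6a5 was 453, 530 and 425 CPM in controls and 168, 340 and 179 CPM in SOD1-G93A mice. It fell by 51.2%, a log2 change of -1.04 (SE 0.25, edgeR adjusted p = 0.0133). Glrb was 406, 436 and 397 CPM in controls and 177, 295 and 188 CPM in SOD1-G93A mice. It fell by 46.8%, a log2 change of -0.91 (SE 0.18, edgeR adjusted p = 0.00649), and passed in all 6 fits without 1 mouse.

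Slc32a1, which did not pass in aging, was 198, 193 and 202 CPM in controls and 93.8, 151 and 110 CPM in SOD1-G93A mice. The controls lay close together, and each SOD1-G93A mouse was far below them. Slc32a1 fell by 40.2%, a log2 change of -0.74 (SE 0.16, edgeR adjusted p = 0.0082), and passed in all 6 fits without 1 mouse. The GABA synthesis genes were less clear. Gad2 was 115, 130 and 114 CPM in controls and 75.2, 106 and 71.8 CPM in SOD1-G93A mice, and fell by 29.7% (log2 change -0.51, SE 0.15, edgeR adjusted p = 0.027). Gad1 was 184, 103 and 170 CPM in controls and 117, 175 and 78 CPM in SOD1-G93A mice. Its groups overlapped, with control 2 low and SOD1-G93A 2 high, and the log2 change was -0.31 (SE 0.29, edgeR adjusted p = 0.447).

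Gphn and Glra3 had smaller changes than the other members that fell. Gphn was 77.1, 89.1 and 79.2 CPM in controls and 59.1, 67.5 and 60.1 CPM in SOD1-G93A mice. It fell by 24%, a log2 change of -0.40 (SE 0.09, edgeR adjusted p = 0.0128). Glra3 was 28.8, 35 and 29.4 CPM in controls and 23.4, 26.7 and 21.7 CPM in SOD1-G93A mice, and fell by 23.2% (log2 change -0.38, SE 0.12, edgeR adjusted p = 0.0408).

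With 3 mice a group, single mice weighed on these calls. SOD1-G93A 2 had the highest value of its group in 8 of 8 genes, and control 2 the highest of its group in 6. Without SOD1-G93A 2 all 8 genes passed, and without control 2 or SOD1-G93A 3 only 2 did, Slc32a1 and Glrb. Slc6a5, Glra1 and Gphn were lost in both of those fits, with log2 changes of -0.94, -1.02 and -0.33 without control 2. Gad2 and Glra3 passed in 1 of 6 fits each, that without SOD1-G93A 2, and no member changed direction.

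**Figure D2:**
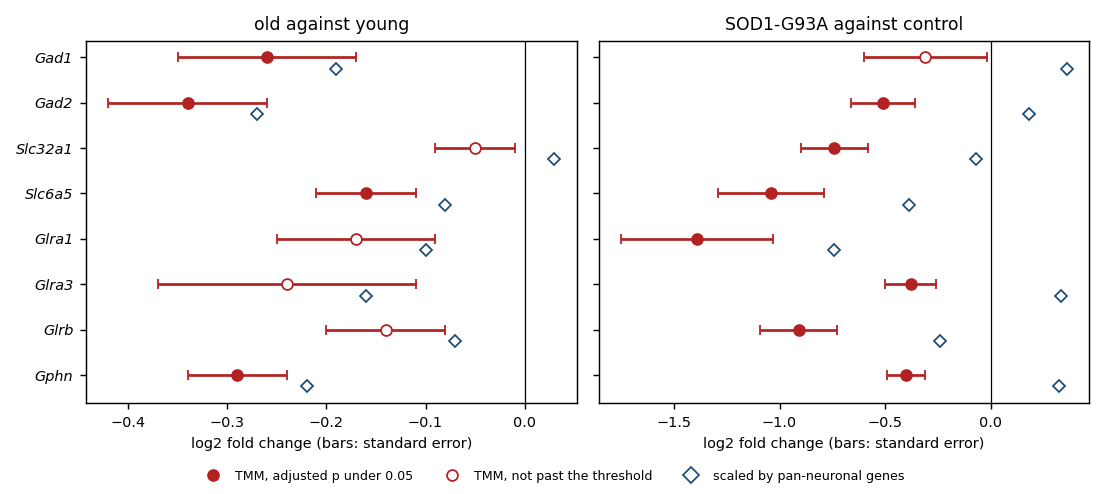
Log2 fold changes (x axis) of the 8 genes in old against young and in SOD1-G93A against control mice, with standard errors, where filled circles passed an adjusted p of 0.05 and diamonds give the value when libraries are scaled by pan-neuronal genes. All 16 circles are below 0, and with pan-neuronal scaling Slc32a1 moves above 0 in aging and Gad1, Gad2, Glra3 and Gphn do in SOD1-G93A mice.

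The neuronal share of the RNA moved with these genes in SOD1-G93A mice. The sum of 10 pan-neuronal genes was 7695–8027 CPM in controls and 3873, 6074 and 4348 CPM in SOD1-G93A mice 1 to 3, and 9 of the 10 fell. The summed 8 inhibitory genes were 1502, 1591 and 1454 CPM in controls and 728, 1193 and 721 CPM in SOD1-G93A mice. SOD1-G93A 2 had the highest of both sums in its group. The sum of 10 microglia and macrophage genes was 244–294 CPM in controls and 2668, 1274 and 1960 CPM in SOD1-G93A mice, with 8 of 10 higher, and that of 7 astrocyte genes was 6034–6636 and 11581–18060 CPM, with 5 of 7 higher. Over all genes in this comparison, 15.5% fell and 18.4% rose. None of the genes of these 3 lists was at 0, and the part of this shift in the results was not tested.

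Scaling each library by its pan-neuronal genes puts the 8 genes beside neurons as a whole, and moves the median of all genes in the ALS comparison to 0.727. Relative to pan-neuronal genes, only Glra1 was called lower in SOD1-G93A mice (log2 change -0.74, edgeR adjusted p = 0.041). Slc6a5 had -0.39 (adjusted p = 0.0636), Glrb -0.24 (adjusted p = 0.143) and Slc32a1 -0.07 (adjusted p = 0.678), also by edgeR. Gad1, Gad2, Glra3 and Gphn turned to 0.36, 0.18, 0.33 and 0.32, and none of them passed. In aging this scaling moved the median of all genes to 0.075 and left 2 members lower, Gad2 (log2 change -0.27, edgeR adjusted p = 0.00633) and Gphn (-0.22, adjusted p = 0.00313).

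In aging the pan-neuronal sum overlapped between the groups, at 7134–7793 CPM in young and 6665–8313 CPM in old mice, with 2 of 10 genes lower (Map2 and Elavl4) and 1 higher (Tubb3). The microglia and macrophage sum was 228–250 CPM in young and 420–876 CPM in old mice, with 9 of 10 higher. Over all genes in aging, 12.9% fell and 13.5% rose. The summed inhibitory genes were 1453–1654 CPM in young and 1215–1554 CPM in old mice. Old 6 had the highest inhibitory sum, the highest pan-neuronal sum and the lowest microglia sum among the old mice.

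**Figure D3:**
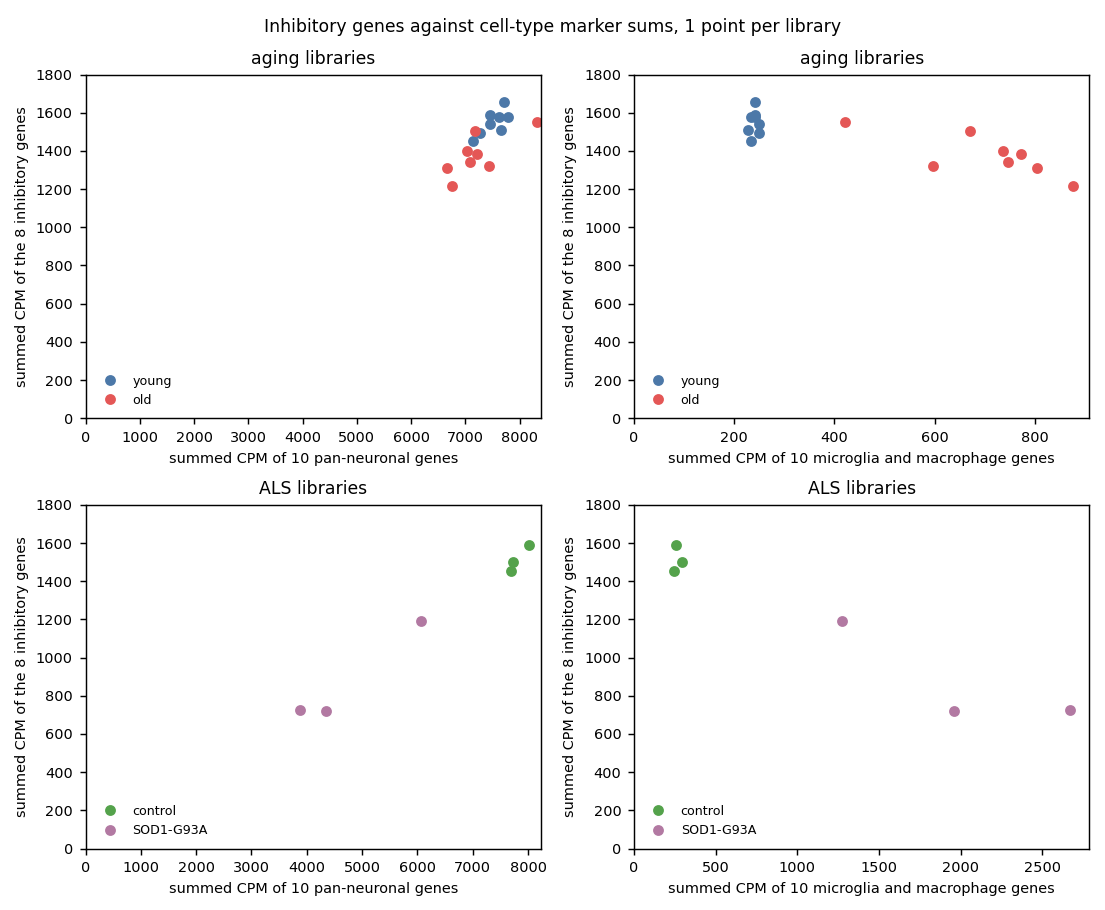
Summed CPM of the 8 inhibitory genes (y axis, from 0) against the summed CPM of 10 pan-neuronal genes (left) and 10 microglia and macrophage genes (right), 1 point per library, for aging (top) and ALS libraries (bottom). In the ALS libraries the inhibitory sums of 721–1193 CPM in SOD1-G93A mice go with pan-neuronal sums of 3873–6074 CPM, below all controls on both axes.

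Genes that mark inhibitory interneurons by lineage gave a further view. Of 14 tested, mostly transcription factors of inhibitory fate in the cord, 4 fell in SOD1-G93A mice (Pax2, Lhx1, En1 and Foxp2) and 0 rose. Over all genes 15.5% fell and 18.4% rose. The median of the 14 was a log2 change of -0.19. With pan-neuronal scaling, which moves the median of all genes to 0.727, 0 fell and 6 rose. The sum of the list was 147–158 CPM in controls and 138–145 CPM in SOD1-G93A mice. Of the 14 values 11 were negative, and Tal1 (0.57, edgeR adjusted p = 0.128), Rorb (0.44, edgeR adjusted p = 0.0603) and Npy (0.15, edgeR adjusted p = 0.426) were above 0. Rorb had a mean of 29.7 CPM in controls and 40.3 CPM in SOD1-G93A mice. Pax2, a determinant of dorsal inhibitory neurons, had a log2 change of -0.49 (SE 0.11, edgeR adjusted p = 0.0112), and En1, which marks a ventral inhibitory class, had -1.05 (SE 0.30, edgeR adjusted p = 0.0277) at 2.33 CPM in controls. In aging 3 of 14 fell (Foxp2, Tfap2b and Rorb), beside 12.9% of all genes, with a median of -0.06. With pan-neuronal scaling 1 fell and 1 rose. The genes named from this list were picked after their values were seen. Of 13 genes of excitatory interneurons, Slc17a6 among them, 3 fell and 0 rose in SOD1-G93A mice, with a median of -0.29. Their sum was 423–461 CPM in controls and 250–390 CPM in SOD1-G93A mice. In aging 1 of 12 fell and 0 rose, with a median of -0.12. With pan-neuronal scaling 0 fell and 3 rose in SOD1-G93A mice, and 0 fell and 0 rose in aging. Of 8 motor neuron genes, 6 fell in SOD1-G93A mice (sum 297–330 CPM in controls, 144–158 CPM in SOD1-G93A mice) and 1 in aging, or 2 and 0 with pan-neuronal scaling.

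Whether the SOD1-G93A and the aging changes differed was tested as an interaction in 1 fit over all 22 libraries. In 4 of the 8 genes the change in SOD1-G93A mice was the more negative one, as in 14.2% of all 14502 genes, while 25.8% differed either way, but in 2 of the 8 (Slc6a5 and Glra1) with pan-neuronal scaling. The log2 difference was -0.72 for Slc32a1 (SE 0.12, edgeR adjusted p = 0.000149), -0.80 for Glrb (SE 0.16, edgeR adjusted p = 0.000545), -0.91 for Slc6a5 (SE 0.19, edgeR adjusted p = 0.000951) and -1.25 for Glra1 (SE 0.28, edgeR adjusted p = 0.00161). These 4 passed whichever ALS mouse was left out. In the ALS comparison alone, Slc6a5 and Glra1 passed in 4 of 6 such fits. The joint fit shares 1 spread estimate per gene over all 22 libraries, most of them from aging. Its SEs are below those of the change in SOD1-G93A mice alone, at 0.16, 0.18, 0.25 and 0.36 in the same order. The adjusted p values may thus understate the spread between ALS mice. The other 4 did not pass: Gad1 had -0.07 (adjusted p = 0.871), Gad2 -0.20 (adjusted p = 0.421), Glra3 -0.17 (adjusted p = 0.604) and Gphn -0.13 (adjusted p = 0.322), all by edgeR. With pan-neuronal scaling, which moves the median difference of all genes to 0.677 and was added after the data were seen, the difference was -0.09 for Slc32a1 (edgeR adjusted p = 0.532), -0.17 for Glrb (edgeR adjusted p = 0.135), -0.31 for Slc6a5 (edgeR adjusted p = 0.0452) and -0.63 for Glra1 (edgeR adjusted p = 0.0103). It turned positive for Gad1 (0.54), Gad2 (0.45), Glra3 (0.50) and Gphn (0.54), each with an edgeR adjusted p under 0.05. All 4 values are below the median of 0.677 over all genes. The share of all genes called on that scale, in either direction, was not counted. In the separate fits on that scale, the changes of these genes were 0.36, 0.18, 0.33 and 0.32 in SOD1-G93A mice. In aging they were -0.19, -0.27, -0.16 and -0.22.

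The balance of inhibitory to excitatory transport genes was taken within each library as the log2 ratio of Slc32a1 to Slc17a6, the vesicular glutamate transporter of most spinal excitatory neurons. It was -0.06 ± 0.13 in young and 0.07 ± 0.16 in old mice (SD, n = 8 each), a difference of 0.13 (two-sided exact permutation test, p = 0.111, adjusted p = 0.222 over 4 tests). Without old 6 the difference was 0.17 (exact permutation p = 0.0308). In the ALS experiment it was -0.16, -0.36 and -0.06 in controls and 0.06, -0.32 and 0.06 in SOD1-G93A mice (exact permutation p = 0.5), where 3 mice against 3 cannot go below 0.1. Slc17a6 itself fell in both comparisons, by 0.18 in aging (edgeR adjusted p = 0.0108) and by 0.82 in SOD1-G93A mice (edgeR adjusted p = 0.0284) on the log2 scale, and the latter call held in 1 of 6 fits without 1 mouse.

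The ratio of Gad1 to Slc6a5 sets GABA synthesis beside glycine uptake. It was -1.61 ± 0.14 in young and -1.73 ± 0.26 in old mice on the log2 scale (SD, n = 8 each, two-sided exact permutation p = 0.296, adjusted p = 0.395). In controls it was -1.30, -2.36 and -1.32, and in SOD1-G93A mice -0.52, -0.96 and -1.19. All 3 SOD1-G93A mice were above all 3 controls, a difference of 0.77 with the smallest p this design allows (exact permutation p = 0.1, adjusted p = 0.222). The difference was 0.42 without control 2 and 0.42 to 0.95 when each mouse was left out in turn, and in aging it went from -0.12 to -0.03 without old 4.

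From mouse to mouse within an age group, correlations were all positive among the members other than Slc32a1, which stood apart. Over the 16 aging libraries, with group means removed, log2 CPM of Glra3 and Glrb had a Pearson correlation of 0.85, Gad2 and Glra3 of 0.72, and Glrb and Gphn of 0.67. The lowest pair without Slc32a1, Gad1 and Glra1, had 0.15. Slc32a1 went the other way with most members, at -0.62 with Gad2, -0.58 with Glra3, -0.50 with Gad1, -0.48 with Glra1 and -0.42 with Glrb. It had 0.11 with Slc6a5 and 0.04 with Gphn. The genes most like Slc32a1 by this measure were Sdf2 (0.89), Gnb1l (0.89), Gpd1l (0.87), Sdc1 (0.87) and Ncdn (0.86). These libraries share their preparation, and the members differ in base content, as follows.

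By the GC content of its longest transcript, Slc32a1 stood at the GC-rich end of the genome with 61.9%, the 98th percentile of all genes, and Glra3 at the other end with 35.2% and Glrb with 40.8%, against a median of 48.7%. The other members were between 44.1% and 52.7%. In the aging libraries the correlation over genes between GC content and a library's deviation from the mean ranged from -0.21 (young 6) to 0.324 (old 4). With a GC correction in each library, chosen after the data were seen, 6 of 8 genes were lower in aging: Slc32a1 (log2 change -0.11, edgeR adjusted p = 0.0305) and Glra1 (-0.26, adjusted p = 0.0243) joined the 4 above. Glra3 and Glrb went to -0.10 (adjusted p = 0.434) and -0.07 (adjusted p = 0.255), so that the order among members in aging moved with the treatment of GC. In SOD1-G93A mice the same 7 genes were lower with the correction, with log2 changes from -1.58 for Glra1 to -0.38 for Glra3. For neither comparison was the share of all genes called with the correction counted.

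**Figure D4:**
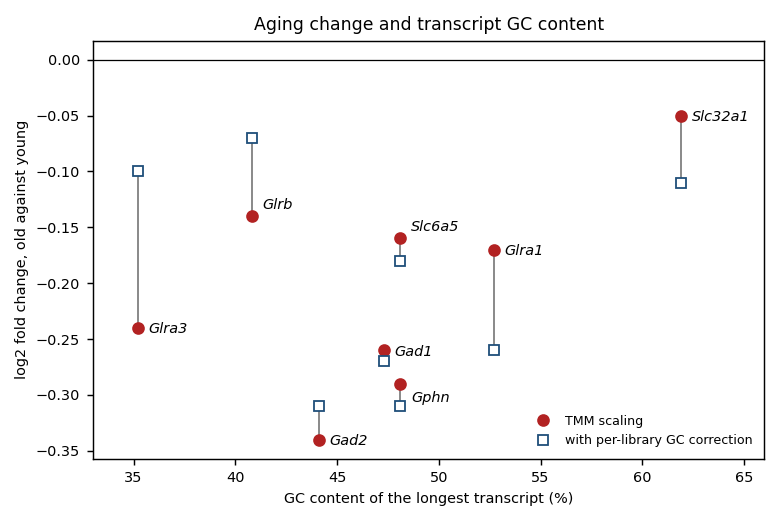
Log2 fold change of old against young mice (y axis) against the GC content of the longest transcript in percent (x axis) for the 8 genes, before (circles) and after (squares) GC correction of each library. Slc32a1, the most GC-rich at 61.9%, moves from -0.05 to -0.11, and Glra3 at 35.2% moves from -0.24 to -0.10.

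The wider machinery of inhibitory transmission was followed in 49 further genes, of which 42 were tested (Gabra6, Gabrd, Gabrp, Gabrr1, Glra4, Kctd16 and Slc6a12 were too low). In aging 16 fell and 3 rose, with a median log2 change of -0.12, and in SOD1-G93A mice 20 fell and 4 rose, with a median of -0.36. Over all genes 12.9% fell and 13.5% rose in aging, and 15.5% fell and 18.4% rose in SOD1-G93A mice. The counts by class below are to be read beside the same shares. With pan-neuronal scaling the counts of the list became 4 lower and 5 higher in aging, and 1 lower and 18 higher in SOD1-G93A mice. That scaling moves the median of all genes to 0.075 in aging and 0.727 in SOD1-G93A mice. The share of all genes called under it was not counted. With GC correction 17 were lower in aging and 30 in SOD1-G93A mice, and the share of all genes was not counted there either.

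Of 14 GABA-A receptor subunits, which form the GABA-gated chloride channel, 6 fell and 0 rose in aging, and 7 fell and 2 rose in SOD1-G93A mice. Gabrb2 had log2 changes of -0.43 in aging (edgeR adjusted p = 0.00886) and -1.46 in SOD1-G93A mice (edgeR adjusted p = 0.0104). Gabra4 fell in aging, at -0.44 (edgeR adjusted p = 0.0024), and had 0.07 in SOD1-G93A mice (adjusted p = 0.707). Glra2, the alpha subunit of immature glycine receptors, had -0.30 in aging (edgeR adjusted p = 0.0139) and -0.58 in SOD1-G93A mice (edgeR adjusted p = 0.0992).

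Among partner genes of the inhibitory postsynapse, 5 of 12 fell and 2 rose in aging, and 6 fell and 1 rose in SOD1-G93A mice. The synaptic organisers Igsf9b and Slitrk3 fell in aging, with log2 changes of -0.30 (edgeR adjusted p = 0.000539) and -0.26 (edgeR adjusted p = 0.00336). Lhfpl4, which anchors GABA-A receptors, fell in both, at -0.18 in aging (edgeR adjusted p = 0.00914) and -0.52 in SOD1-G93A mice (edgeR adjusted p = 0.00759). Gabarap, a receptor trafficking and autophagy protein, rose in both, at 0.28 in aging (edgeR adjusted p = 0.000474) and 0.60 in SOD1-G93A mice (edgeR adjusted p = 0.0064). Its relative Gabarapl1 rose in aging by 0.18 (edgeR adjusted p = 0.000472). The gephyrin-binding proteins Insyn1 and Iqsec3 fell in SOD1-G93A mice, at -0.52 (edgeR adjusted p = 0.00545) and -0.60 (edgeR adjusted p = 0.00594).

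Chloride transporters set the driving force for both transmitters. Slc12a5, the neuronal exporter of chloride, had a log2 change of -0.14 in aging (edgeR adjusted p = 0.0852) and -0.77 in SOD1-G93A mice (edgeR adjusted p = 0.00766). Slc12a2, which imports chloride, had -0.24 in aging (edgeR adjusted p = 0.0017) and -0.29 in SOD1-G93A mice (edgeR adjusted p = 0.0341). Of 4 plasma membrane transporters for GABA and glycine, 0 passed in aging and 2 fell in SOD1-G93A mice: Slc6a11, an astrocyte GABA transporter, at -0.97 (edgeR adjusted p = 0.00935), and Slc6a9, the glial glycine transporter, at -0.44 (edgeR adjusted p = 0.00558). Of 4 tested genes of GABA-B receptors and their auxiliary proteins, 1 fell and 0 rose in aging, and 2 fell and 1 rose in SOD1-G93A mice. Gabbr2 fell in both comparisons, at -0.21 in aging (edgeR adjusted p = 0.0394) and -0.74 in SOD1-G93A mice (edgeR adjusted p = 0.00888). The auxiliary gene Kctd12 rose in SOD1-G93A mice by 0.76 (edgeR adjusted p = 0.0016). Of 5 genes of GABA breakdown and glycine cleavage, 2 fell and 1 rose in aging, and 1 fell and 0 rose in SOD1-G93A mice. Gcsh, of the glycine cleavage system, was the 1 that rose in aging, by 0.28 (edgeR adjusted p = 3.6e-05).

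Without SOD1-G93A 3 the number of wider genes lower in SOD1-G93A mice went from 20 to 5, and without control 2 to 10. Slc12a5, Slc6a9, Iqsec3, Lhfpl4, Insyn1, Gabarap and Kctd12 were past the test in all 6 of these fits. Slc12a2 passed in 1, and Gabrb2, Gabbr2 and Slc6a11 were among those lost without SOD1-G93A 3. In aging Gabbr2 passed in 4 of 16 such fits, and the other wider genes named as lower or higher with a log2 value above passed in all 16, Glra2 not being followed there.

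**Figure D5:**
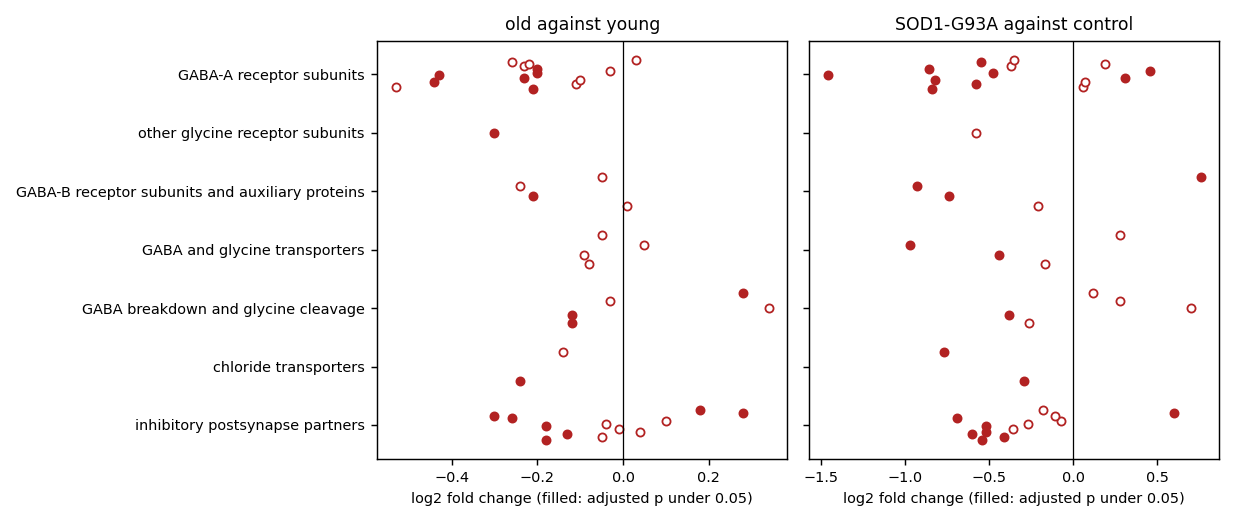
Log2 fold changes (x axis) of the 42 tested genes of the wider list by class (y axis), in old against young (left) and SOD1-G93A against control mice (right), 1 point per gene, filled where the adjusted p was under 0.05. GABA-A receptor subunits reach -1.46 in SOD1-G93A mice, and among postsynaptic partners 1 gene, Gabarap at 0.60, passed above 0 there. With pan-neuronal scaling 1 gene of the 42 was lower and 18 were higher in SOD1-G93A mice, where the median of all genes moves to 0.727.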

How the data were processed

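RNA of 22 whole spinal cords was measured. The authors aligned reads with STAR to mm10 with Ensembl 88 genes and deposited estimated counts per gene from RSEM, already rounded to whole numbers, and log2(FPKM + 1) values (SAMtools 1.3 is in the submitters' notes). Groups came from the labels, and each library came from 1 mouse, so that p-values measure the spread between mice. The closest pair of libraries in a group still differed by more than sampling noise.

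Each comparison was fitted in edgeR 4.0.16 (quasi-likelihood test) on its own libraries, with a count minimum of 10 and total of 15, TMM scaling and p-values adjusted by Benjamini-Hochberg over every gene in the fit, at a threshold of 0.05. The difference between comparisons was an interaction in 1 fit of 22 libraries. CPM are after TMM scaling. FPKM were recovered from the deposited log2 values. The 2 ratios within libraries were tested with exact permutations.

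Named genes beyond the 8 were the 10 with the lowest adjusted p in the wider list in each comparison among those past the threshold, Gabra2, Slc17a6 and the 5 genes most like Slc32a1. Glra2, the 1 tested gene of its class, and values of a gene in the comparison that did not select it were added after values were seen. Some genes that this rule names are not reported here. The members and all lists were chosen with earlier results of these data known. On simulated counts, 200 genes were changed in each fit. The aging fit of 13647 genes recovered 76.5% of log2 changes of 0.5 and 96% of those of 1. The ALS fit of 14386 genes recovered 2% and 83.5%. In the data 3600 genes passed in aging and 4877 in ALS, which makes the adjusted threshold less strict, so that these shares need not hold there.

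Alternatives were DESeq2 1.42.0, its size factors, no filter, 1 fit of all libraries, limma 3.58.1 on log2(FPKM + 1) and log2(FPKM + 0.1), pan-neuronal scaling, leaving out each library and a GC correction added after seeing the data, as was pan-neuronal scaling of the interaction.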

Additional observations from a re-analysis of the deposited data

Results flagged for a closer look

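A single mouse stood apart from the other 7 of its group by Dixon's test in 6 of 56 groups of 8 examined, where chance flags about 1 in 20. Gad1 was 83.3 CPM in old 4, with the other old mice at 142–164 CPM, and the log2 ratio of Gad1 to Slc6a5 was -2.34 in the same mouse, with the others between -1.78 and -1.50. In old 6 Glra1 was 165 CPM (others 116–136 CPM) and Gabbr2 189 CPM (others 124–140 CPM). Gabra4 was 8.2 CPM in old 7 (others 11.6–14.7 CPM), and Iqsec3 was 307 CPM in young 7 (others 330–348 CPM).

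The interaction test separated the SOD1-G93A change from the aging change in 4 of the 8 genes, by -0.72 for Slc32a1, -0.91 for Slc6a5, -1.25 for Glra1 and -0.80 for Glrb on the log2 scale. The experiment, kit, sex and age of controls cannot be told apart in this difference. Its fit shares 1 spread estimate per gene over all libraries, so that its p-values may understate the spread between ALS mice. With pan-neuronal scaling the differences were -0.09 for Slc32a1, -0.31 for Slc6a5, -0.63 for Glra1 and -0.17 for Glrb, of which those of Slc6a5 and Glra1 passed.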

How the results depend on the processing

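On simulated counts with 200 changed genes the ALS fit recovered 2% of log2 changes of 0.5. In the data 4877 genes passed, so that the adjusted threshold was less strict and this share need not hold. The aging calls are for changes well under 1 on the log2 scale. The number of the 8 genes called lower in aging (4) became 2 with pan-neuronal scaling, 2 in 1 fit of all libraries and 2 with limma at either pseudocount, and 2 to 7 when 1 library was left out (2 without young 2 or young 4, 7 without old 6). In SOD1-G93A mice (7) it became 1 with pan-neuronal scaling and 4 with limma at either pseudocount, and 2 to 8 with 1 library left out. In the wider list the aging count (16) became 4 with pan-neuronal scaling, 9 in 1 fit, 8 with limma on log2(FPKM + 1) and 9 on log2(FPKM + 0.1), and 12 to 22 with 1 library left out. The SOD1-G93A count (20) became 1 with pan-neuronal scaling, 30 with GC correction and 5 to 25 with 1 library left out. The share of all genes called under each alternative was not counted, and the cause was not tested.

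With pan-neuronal scaling the log2 change turned to 0.03 for Slc32a1 and 0.03 for Kctd12 in aging, and in SOD1-G93A mice to 0.36 for Gad1, 0.18 for Gad2, 0.33 for Glra3, 0.32 for Gphn, 0.54 for Gabarapl1, 0.62 for Igsf9b, 0.18 for Insyn1, 0.10 for Iqsec3, 0.18 for Lhfpl4, 0.43 for Slc12a2 and 0.28 for Slc6a9. Pan-neuronal scaling moves the median of all genes to 0.075 in aging and 0.727 in SOD1-G93A mice. GC correction turned Insyn1 to -0.02 and Slc6a11 to -0.05 in aging and Gabra4 to -0.02 in SOD1-G93A mice. Limma turned Gabra4 in SOD1-G93A mice to -0.08 and -0.10. With 1 library left out, the ALS log2 change of Gabra2 was -0.18 to 0.20, and the Gad1 interaction was -0.42 to 0.18. The aging difference in the ratio of Slc32a1 to Slc17a6 ranged from 0.09 to 0.17, and without old 6 it was 0.17 (exact permutation p = 0.0308). The count of 4 genes with a more negative change in SOD1-G93A mice became 2 with pan-neuronal scaling. There the difference turned to 0.54 for Gad1, 0.45 for Gad2, 0.50 for Glra3 and 0.54 for Gphn, below the median of 0.677 over all genes. The count was 4 with the other size factors, no filter, GC correction and each ALS library left out, the other alternatives run for it. No paired analysis was possible because the columns carry a group and a library number that is in no label.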

Other observations

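Gabra2, a GABA-A receptor alpha subunit, varied more between mice than the 8 genes did in the aging experiment. In young mice it was 61, 61.8, 70.1 and 64 CPM in young 1 to 4 and 134, 167, 129 and 134 CPM in young 5 to 8. In old mice it lay between 34.5 and 124 CPM. The log2 change with age was -0.53 (SE 0.24, edgeR adjusted p = 0.104). In the ALS experiment it was 129, 125 and 71.1 CPM in controls and 114, 116 and 108 CPM in SOD1-G93A mice, a log2 change of 0.06 (edgeR adjusted p = 0.845).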
